A study of Mus musculus with 6 samples.

Results

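The genes described here are 35 nuclear-encoded subunits of the mitochondrial respiratory chain, read in RNA-seq of mouse MA9 leukaemia cells with and without the transcription factor gene Gata2. They were chosen by symbol from a fixed list of complex I to IV subunits, and all 35 were found among the 49585 genes of the count table. The 6 libraries fall into 2 groups of 3. Gata2 f/f cells carry floxed alleles of Gata2, and Gata2 KO cells are the same kind of leukaemia with Gata2 deleted; short sample names mark the first as f-f and the second as Cre. Both groups are bone marrow leukaemias grown in medium with 15% serum, IL-3, IL-6 at 10 ng/mL and SCF at 20 ng/mL, and both were treated with 5 µM Nutlin for 18 h, so every value below is from treated cells and no untreated culture was analysed here. MA9 is the usual short name of the MLL-AF9 fusion oncogene, and Nutlin blocks the binding of MDM2 to p53. The sources do not say whether the 3 samples of a group are separate leukaemias or cultures of 1, nor which Cre was used, and a deleted allele and Cre go together in the labels, so their effects cannot be told apart. The study's question, as its design states it, is what differs between the genotypes under Nutlin.

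The respiratory chain passes electrons from NADH and succinate to oxygen and pumps protons across the inner mitochondrial membrane, and the proton gradient drives ATP synthase. Complex I takes electrons from NADH, complex II from succinate, complex III passes them from ubiquinol to cytochrome c, and complex IV hands them to oxygen. Most subunits are encoded in the nucleus and imported, while a core few are made inside the organelle from mitochondrial DNA, so both genomes have to supply each complex except complex II. Myeloid leukaemia stem cells are known for a strong reliance on oxidative phosphorylation.

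Depth was 17138687 to 26440960 counts per library, and 13744 genes passed the filter on low counts. Levels are given as CPM, counts scaled to the same library total, and groups of 3 values follow the order of the library numbers 1, 2 and 3. Gata2 itself read 33.6, 22.3 and 18.4 CPM across Gata2 f/f 1, 2 and 3 against 5.44, 43.3 and 4.33 CPM across Gata2 KO 1, 2 and 3. The library labelled Gata2 KO 2 had the highest value of the 6 and goes against its label. For Gata2 the log2 fold change, Gata2 KO over Gata2 f/f, was -0.49 (edgeR adjusted p of 1) over all libraries. Without that library it was -2.35 (edgeR adjusted p = 0.915), and -2.36 (edgeR adjusted p = 0.00356) with the number as a block as well. That library was set aside for its own Gata2 level, so these values are no test of the deletion. The library Gata2 KO 3 also stood apart. Late neutrophil markers, with a positive log2 fold change for 8 of 9 tested, summed to 266 to 1840 CPM in Gata2 f/f and 589 to 3160 CPM in Gata2 KO, highest in Gata2 KO 3. Proliferation markers, positive for 1 of 7, summed to 1730 to 2530 and 1170 to 2700 CPM, lowest in Gata2 KO 3. Monocyte and macrophage markers, positive for 7 of 9, summed to 779 to 2530 and 1080 to 2880 CPM. Summed markers of B, T, erythroid, mast and megakaryocytic cells were at most 15.1 CPM in any library. Stromal markers summed to 8.12 to 26.2 CPM in Gata2 f/f and 11.8 to 32.7 CPM in Gata2 KO, highest in Gata2 KO 3. Endothelial markers summed to 119 to 165 and 132 to 201 CPM, nearly all of it Pecam1, which myeloid cells also express, with Cdh5 at 2.01 to 12.9 and Kdr at 0.937 to 6.30 CPM. The leukaemia gene Hoxa9 was at 168 to 178 CPM in Gata2 f/f and 197 to 231 CPM in Gata2 KO, and the B cell factor Pax5 was at 0 in every library. In bulk RNA, fewer cells of a type and less RNA per cell cannot be told apart.

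All 35 subunit genes were well measured, with raw counts from 446 to 21112 in a single library. Together they took 0.521%, 0.629% and 0.548% of the counts of Gata2 f/f 1, 2 and 3, and 0.489%, 0.614% and 0.728% of those of Gata2 KO 1, 2 and 3. Levels between genes are compared as CPM per kilobase of mRNA, averaged over the 6 libraries. On that scale the median was 92.4 for complex I, 128 for complex II, 132 for complex III and 285 for complex IV. The 5 highest genes were all of complex IV, whose levels ran from Cox5a at 78.3 to Cox6a1 at 935 CPM per kilobase.

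Within complex IV, the peripheral subunits Cox6a1 (935), Cox4i1 (666) and Cox8a (466 CPM per kilobase) were the most abundant. Cox5b, which holds a zinc site, stood at 319, and Ndufa4 at 293 CPM per kilobase. Ndufa4 is named for complex I and was later assigned to complex IV, where it is counted here. Cox6b1, which bridges the 2 monomers on the intermembrane side, stood at 277, Cox6c at 225, Cox7a2 at 201 and Cox7b at 152 CPM per kilobase. In complex III the small subunit Uqcrq, which lies beside cytochrome b, led with 246, followed by the core protein Uqcrc1 (188), cytochrome c1 itself, Cyc1 (142), Uqcrb (121), the Rieske iron-sulfur protein Uqcrfs1 (94.4) and the second core protein Uqcrc2 (90.3 CPM per kilobase).

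The 4 complex II genes ran from 40.2 CPM per kilobase for Sdhc to 205 for Sdhd, both of which encode membrane anchors. The flavoprotein Sdha stood at 138 and the iron-sulfur protein Sdhb at 118 CPM per kilobase. In complex I the lowest of all 35 genes was Ndufs1, the largest subunit of the NADH-oxidising arm, at 37.9 CPM per kilobase. The membrane-arm subunit Ndufb10 was the highest of complex I at 207, and Ndufa8 was next at 192 CPM per kilobase. The levels of the 15 complex I genes spanned 5.46-fold, although the complex holds each of these subunits in like number.

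**Figure D1:**
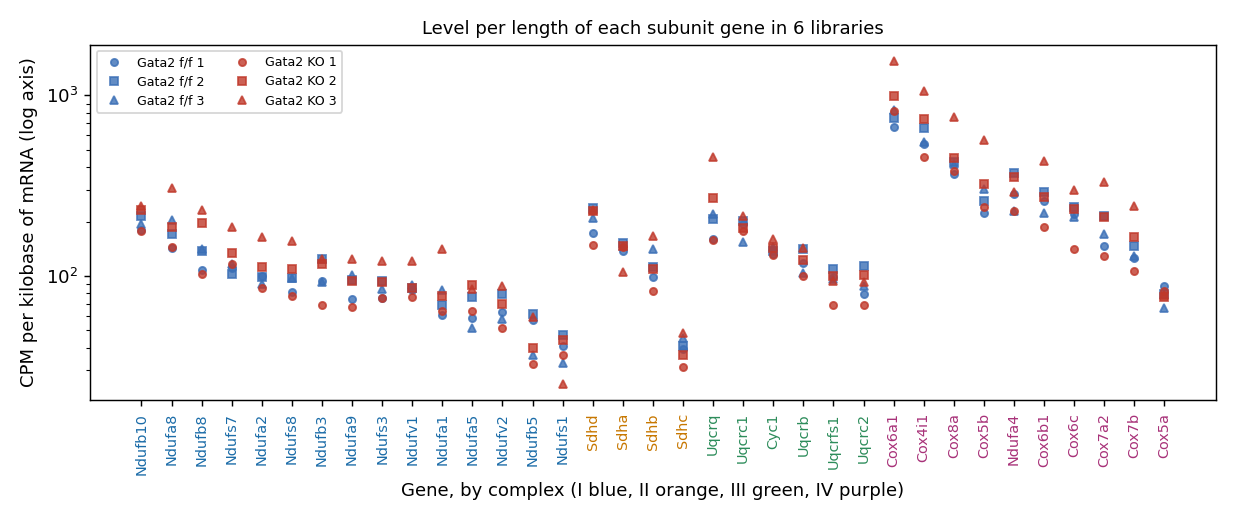
Level of each subunit gene in CPM per kilobase of mRNA (log axis) in 6 libraries, with genes ordered by mean level within each complex. Complex IV genes reach the highest values, Cox6a1 first with a mean of 935, and triangles of Gata2 KO 3 sit at the top for 25 of the 35 genes.

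Several complex IV subunits have a paralogue that replaces them in muscle, lung or testis, and these forms were nearly silent. Cox4i2, the lung form, had at most 0.714 CPM in any library, against 346 to 795 CPM for Cox4i1. No read of the testis forms Cox7b2 and Cox8c was counted in any library. Cox6a2, the muscle form, made up 0.266% to 0.918% of its pair with Cox6a1 per kilobase. The muscle form Cox7a1 was the exception, with 4.80% to 9.47% of its pair with Cox7a2, and it ranged from 3.48 CPM in Gata2 f/f 1 to 13.6 CPM in Gata2 KO 3.

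The genes lie on 17 chromosomes, with at most 4 on 1 chromosome. Nuclear respiratory genes are known targets of NRF1 and of the ETS factor GABP. RefSeq promoter windows (GRCm38.p6, 250 bases before to 50 after the start) were matched for 26 of the 35 genes, all but Ndufs1, Ndufa2, Sdhc, Uqcrb, Uqcrq, Uqcrc2, Cyc1, Cox4i1 and Cox6c. The NRF1 motif GCGCNTGCG was searched on both strands with 7 others. It was found in 7 of the 26 windows (26.9%), against 15.1% of the windows of all genes tested and 7.12% of all windows. Sdha has 3 matches, Cox6a1, Ndufa8 and Uqcrc1 have 2 each, and Ndufa5, Ndufb10 and Sdhd have 1. The matches of 6 of these genes are shown, 1 of the 2 for Ndufa8, so that the shared letters can be seen, and those of Uqcrc1, which lie after its start, are not. Each has 10 bases on either side and the motif, or its reverse complement, in capitals, 5′ to 3′ on the gene's own strand, which is the minus strand for all of these.
Cox6a1, chr5:115349101-115349130: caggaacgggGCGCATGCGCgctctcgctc
Cox6a1, chr5:115349056-115349084: ggataaagtgCGCAGGCGCtggagttcct
Ndufa5, chr6:24527697-24527725: gtgtgagctgCGCAGGCGCaaatctacct
Ndufa8, chr2:36049350-36049378: ctagagcagtGCGCTTGCGcgtcgctgga
Ndufb10, chr17:24724431-24724459: ctgcccactaCGCAGGCGCagctgtcacc
Sdha, chr13:74350319-74350347: gtttacagggCGCAGGCGCaccaccactc
Sdha, chr13:74350276-74350304: gggcgtgttgCGCAGGCGCagaatcttcc
Sdha, chr13:74350231-74350259: cgactcggtgCGCAAGCGCagtctgtcgc
Sdhd, chr9:50603909-50603937: cgctggggtgCGCACGCGCggtggcagcg

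The first base of the motif lies 162 and 116 bases before the RefSeq start of Cox6a1, and 97, 54 and 9 bases before that of Sdha. The ETS motif CCGGAAGT was found in 2 of the 26 windows (7.69%, against 9.21% of tested genes), those of Cox8a and Ndufs3. The YY1 motif AGATGGCGG was found in 2 (7.69%, against 2.79%), those of Ndufa9 and Ndufs7. TCAAGGTCA, the letters read by the oestrogen-related receptors, was found in 1 (3.85%, against 0.335%), that of Sdhd, and the Myc E-box CACGTG in 1 (3.85%, against 11.8%), that of Ndufv1. GGGCGG, the SP1 box, was in 11 (42.3%, against 67.1%) and CCAAT, the NF-Y box, in 8 (30.8%, against 43.2%). The GATA letters AGATAA were in none of the 26 windows, against 7.99% of tested genes. No other form of the GATA motif was searched, so a GATA site may still be present. No match of one motif overlapped a match of another. These are matches of letters, with no binding measured.

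Between genotypes, none of the 35 genes passed the test, and the data bound most of them only loosely. No gene at all passed an adjusted p of 0.05 in edgeR's quasi-likelihood test (0% of 13744 tested), and 171 genes (1.24%) but no subunit gene had an unadjusted p under 0.05. DESeq2 called 7 genes, none of them a subunit gene. The log2 fold change of Gata2 KO over Gata2 f/f was positive for 26 of the 35 (74.3%, against 52.5% of all genes tested), with a median of 0.13 against 0.02. Without Gata2 KO 3 the median became -0.04 and 11 of 35 were positive, so the sign of the balance rested on that library. Without Gata2 KO 1 the median was 0.25, with 29 positive.

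**Figure D2:**
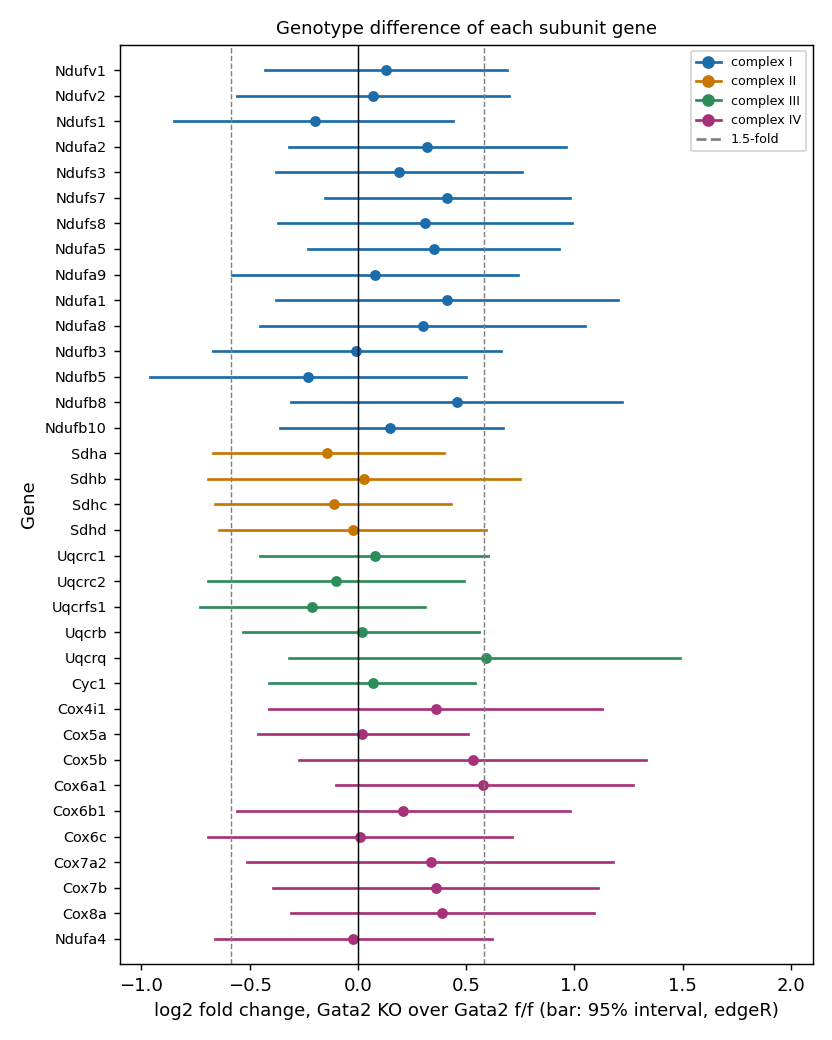
Log2 fold change of each subunit gene, Gata2 KO over Gata2 f/f (point), with its 95% interval from edgeR (bar) over 3 libraries a group. The fit had no block, and dashed lines mark 1.5-fold. Every interval includes 0, and those of Uqcrb, Cyc1 and Cox5a lie between the dashed lines.

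How large a difference these libraries leave possible was read from the 95% intervals. For 3 of the 35 genes (8.57%), Uqcrb, Cyc1 and Cox5a, the interval lay within 1.5-fold in both directions, against 3.67% of all genes tested. For 10 genes, 6 of them in complex IV, the upper bound was beyond 2-fold, and for none was the lower bound beyond 2-fold. The widest reach upward was that of Uqcrq, 2.82-fold, and the widest downward that of Ndufb5, 0.513-fold. With the replicate number as a block, 15 of the 35 (42.9%) were bounded within 1.5-fold, against 18.3% of all genes. Among them were all 4 complex II genes and 4 of the 6 complex III genes but only 2 of the 10 complex IV genes. Without Gata2 KO 3 the count was 10, and without any 1 of the other libraries it was 0 or 1.

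The 15 complex I genes summed to 1310, 1530 and 1420 CPM across Gata2 f/f 1, 2 and 3, against 1210, 1600 and 2020 CPM across Gata2 KO 1, 2 and 3. The groups overlapped, with Gata2 KO 1 lowest and Gata2 KO 3 highest of the 6, and the means were 1420 ± 110 and 1610 ± 408 (SD, n = 3). Their median log2 fold change was 0.19, with 12 of 15 positive, and -0.03 with 5 positive without Gata2 KO 3. The 4 genes of the NADH-oxidising N module had a median of 0.10, the 5 of the quinone-binding Q module 0.31, and the 6 of the proton-pumping P module 0.23. Without Gata2 KO 3 these medians were -0.07, 0 and -0.05.

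Ndufs7, the Q module subunit that carries the last iron-sulfur cluster before quinone, was the only one of the 35 whose groups did not overlap, where 2.64% of all genes had Gata2 KO above and 5.42% had no overlap in either direction. It read 96.2, 88.7 and 101 CPM across Gata2 f/f 1, 2 and 3 against 101, 117 and 162 CPM across Gata2 KO 1, 2 and 3. The gap was small: the nearest pair, Gata2 f/f 3 and Gata2 KO 1, stood at 101.0 and 101.4 CPM. The log2 fold change was 0.41 ± 0.24 (SE), with an edgeR adjusted p of 1. Ndufs7 lies on chromosome 10, from 80249121 to 80256794 (GRCm38).

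Ndufb8, an accessory subunit of the membrane arm, had the largest log2 fold change of complex I, 0.46 ± 0.33 (SE). Its levels were 73.3, 93.6 and 96.2 CPM in the Gata2 f/f libraries against 69.6, 134 and 157 CPM in the Gata2 KO libraries, so Gata2 KO 1 was lowest and the other 2 highest. The X-linked Ndufa1, another membrane-arm subunit, read 25.4, 29.0 and 35 CPM in the Gata2 f/f libraries against 26.8, 32.6 and 59.1 CPM in the Gata2 KO libraries, with a log2 fold change of 0.41 ± 0.34 (SE). For both, the groups overlapped and Gata2 KO 3 was the highest library.

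The other Q and P module genes ranged from -0.23 to 0.35. The log2 fold change was 0.35 for Ndufa5, 0.31 for Ndufs8, which carries 2 iron-sulfur clusters, 0.30 for Ndufa8, 0.19 for Ndufs3, 0.15 for Ndufb10 and 0.08 for Ndufa9. Ndufb10 read 132, 158 and 141 CPM in the Gata2 f/f libraries against 130, 170 and 179 CPM in the Gata2 KO libraries, a spread of less than 1.5-fold over all 6 libraries. Ndufb3 was at -0.01 and Ndufb5 at -0.23. Ndufb5 shares 12.3% of its exon bases with Mrpl47, so its count is uncertain.

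In the N module, which accepts electrons from NADH, the flavin subunit Ndufv1 had a log2 fold change of 0.13, its partner Ndufv2 0.07 and Ndufa2 0.32. Ndufs1 went the other way, with 108, 124 and 86.3 CPM in the Gata2 f/f libraries against 95.6, 116 and 66.0 CPM in the Gata2 KO libraries, with a log2 fold change of -0.20 ± 0.28 (SE). It was lowest in Gata2 KO 3, where most other complex I genes were highest, and its groups overlapped.

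Complex II had the least spread of the 4 complexes in its sum, 1.25-fold from lowest to highest library. Its single genes spread more, from 1.45-fold for Sdha to 2.03-fold for Sdhb. Its 4 genes summed to 845, 993 and 984 CPM across Gata2 f/f 1, 2 and 3, against 794, 944 and 937 CPM across Gata2 KO 1, 2 and 3. The means were 941 ± 83.0 and 891 ± 84.7 (SD, n = 3), so the groups overlapped and the means differed by less than the SD of either. Within pairs of the same number, the sum was lower in Gata2 KO in all 3, although 3 of the 4 genes had a positive ratio in number 3. The median log2 fold change was -0.07, with 1 of 4 positive, and -0.09 with 0 of 4 positive under the replicate block, where the smallest adjusted p of the 4 was 0.741 in edgeR. Leaving out Gata2 KO 3 gave -0.23, leaving out Gata2 f/f 1 gave -0.19 and leaving out Gata2 KO 1 gave 0.07, so its direction rested on Gata2 KO 1.

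Sdha, the flavoprotein that oxidises succinate, read 396, 443 and 424 CPM in the Gata2 f/f libraries against 418, 423 and 305 CPM in the Gata2 KO libraries. Like Ndufs1, it was lowest in Gata2 KO 3, and its log2 fold change was -0.14 ± 0.23 (SE). Sdhc read 125, 129 and 144 CPM in the Gata2 f/f libraries against 98.8, 116 and 153 CPM in the Gata2 KO libraries, with a log2 fold change of -0.11 ± 0.23 (SE). Sdhb read 112, 128 and 160 CPM against 94.4, 124 and 191 CPM in the same order, with 0.03 ± 0.31 (SE). Sdhd, the second anchor, read 213, 294 and 257 CPM against 182, 281 and 287 CPM, with -0.02 ± 0.26 (SE). Both genotypes overlapped for all 4 genes, and Gata2 KO 1 was the lowest library for Sdhb, Sdhc and Sdhd.

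Complex III summed to 1020, 1180 and 1040 CPM across Gata2 f/f 1, 2 and 3, against 923, 1170 and 1420 CPM across Gata2 KO 1, 2 and 3. The means were 1080 ± 87.2 and 1170 ± 249 (SD, n = 3), and again the Gata2 KO libraries held both the lowest and the highest value. The median log2 fold change was 0.04, with 4 of 6 positive, although 1 gene had the largest value of all 35. It was negative when 1 library was left out in 3 cases, at -0.09 without Gata2 KO 3, -0.10 without Gata2 f/f 3 and -0.03 without Gata2 f/f 1.

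That gene was Uqcrq, with 155, 199 and 213 CPM in the Gata2 f/f libraries against 153, 260 and 440 CPM in the Gata2 KO libraries. Gata2 KO 2 and 3 lay above every Gata2 f/f library and Gata2 KO 1 below every one. The log2 fold change was 0.59 ± 0.39 (SE), with an interval from -0.32 to 1.49 and an edgeR adjusted p of 1. Uqcrq lies on chromosome 11, from 53427922 to 53430831 (GRCm38).

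Its partners differed less. The Rieske protein Uqcrfs1 read 135, 148 and 131 CPM in the Gata2 f/f libraries against 94.5, 136 and 128 CPM in the Gata2 KO libraries, with a log2 fold change of -0.21 ± 0.22 (SE), and the groups overlapped. Uqcrc2 read 150, 216 and 166 CPM against 130, 191 and 175 CPM, with -0.10 ± 0.25 (SE), and shares 19.7% of its exon bases with Pdzd9. Both genes were lowest in Gata2 KO 1 and highest in Gata2 f/f 2. The log2 fold change was 0.08 for Uqcrc1, 0.07 for Cyc1 and 0.02 for Uqcrb, whose near-identical pseudogenes Gm2962 and Gm16089 held 4.67% and 2.61% as many counts as Uqcrb.

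Complex IV had the widest spread in its sum. Its 10 genes summed to 1910, 2250 and 2050 CPM across Gata2 f/f 1, 2 and 3, against 1800, 2500 and 3700 CPM across Gata2 KO 1, 2 and 3. Gata2 KO 3 was 2.06-fold above Gata2 KO 1, the lowest library, and the means were 2070 ± 169 and 2670 ± 963 (SD, n = 3). The median log2 fold change was 0.35, with 9 of 10 positive. Without Gata2 KO 3 it was 0.00, with 5 positive. Counting Ndufa4 with complex I instead gave 0.36 with 9 of 9 positive for complex IV and 0.17 with 12 of 16 positive for complex I.

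**Figure D3:**
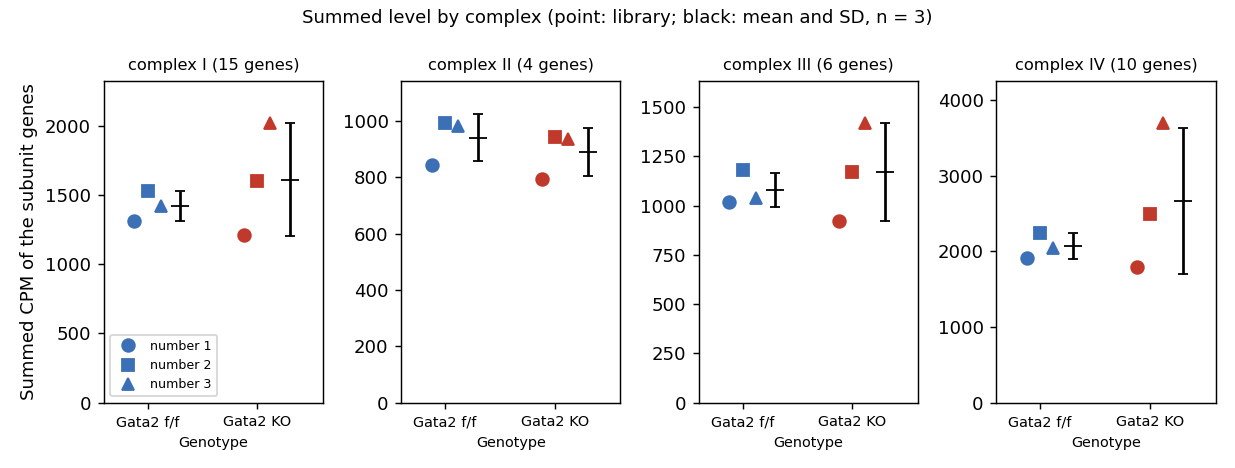
Summed CPM of the subunit genes of each complex by genotype; points are libraries, with their number as the shape, and black bars are mean and SD (n = 3). In complexes I, III and IV, Gata2 KO holds both the lowest and the highest library, and in complex IV the highest, Gata2 KO 3, is at 3700.

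Cox6a1, which encodes the main non-muscle form of subunit 6a, read 383, 427 and 473 CPM in the Gata2 f/f libraries against 470, 563 and 887 CPM in the Gata2 KO libraries. Gata2 KO 1 lay just under Gata2 f/f 3, so the groups overlapped by that pair alone. The log2 fold change was 0.58 ± 0.29 (SE), with an edgeR adjusted p of 1 and the smallest unadjusted p of the 35, 0.0853. With the replicate number as a block it was the only subunit gene with an unadjusted p under 0.05 (0.0234, adjusted p = 0.429), where 10.7% of all genes had one. Cox6a1 lies on chromosome 5, from 115345642 to 115348981 (GRCm38).

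Cox5b read 192, 224 and 261 CPM in the Gata2 f/f libraries against 208, 281 and 487 CPM in the Gata2 KO libraries, with a log2 fold change of 0.53 ± 0.34 (SE). The near-identical Gm11273 held 4.94% as many counts as Cox5b. Cox8a, a small membrane subunit, read 202, 235 and 228 CPM in the Gata2 f/f libraries against 210, 246 and 417 CPM in the Gata2 KO libraries, with 0.39 ± 0.30 (SE). In both genes the groups overlapped and Gata2 f/f 1 was lowest.

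Among the remaining complex IV genes, the log2 fold change was 0.36 for both Cox4i1 and the X-linked Cox7b, 0.34 for Cox7a2, 0.21 for Cox6b1, 0.01 for Cox6c and -0.02 for Ndufa4. Cox4i1 shares 9.94% of its exon bases with Emc8. Cox5a, the subunit that binds thyroid hormone metabolites, was the flattest of the complex, with 56.5, 51.1 and 42.6 CPM in the Gata2 f/f libraries against 53.0, 49.4 and 50.3 CPM in the Gata2 KO libraries. Its log2 fold change was 0.02 ± 0.21 (SE), and its highest library was Gata2 f/f 1.

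The 35 genes shared a pattern by library more than by genotype. Gata2 KO 3 was the highest library for 25 of them and Gata2 KO 1 the lowest for 24. The median deviation from each gene's mean, on the log2 CPM scale, was -0.18, 0.06 and -0.10 across Gata2 f/f 1, 2 and 3 against -0.35, 0.09 and 0.44 across Gata2 KO 1, 2 and 3. The 2 ends of the range were thus both labelled Gata2 KO, and the SD over libraries was larger in Gata2 KO than in Gata2 f/f for 31 of the 35. The 10 genes not highest in Gata2 KO 3 were Ndufs1, Ndufa5, Ndufb3, Ndufb5, Sdha, Sdhd, Uqcrc2, Uqcrfs1, Cox5a and Ndufa4, 8 of them highest in Gata2 f/f 2. From lowest to highest library, levels differed by a median of 1.85-fold, from 1.23-fold for Cyc1 to 2.88-fold for Uqcrq.

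**Figure D4:**
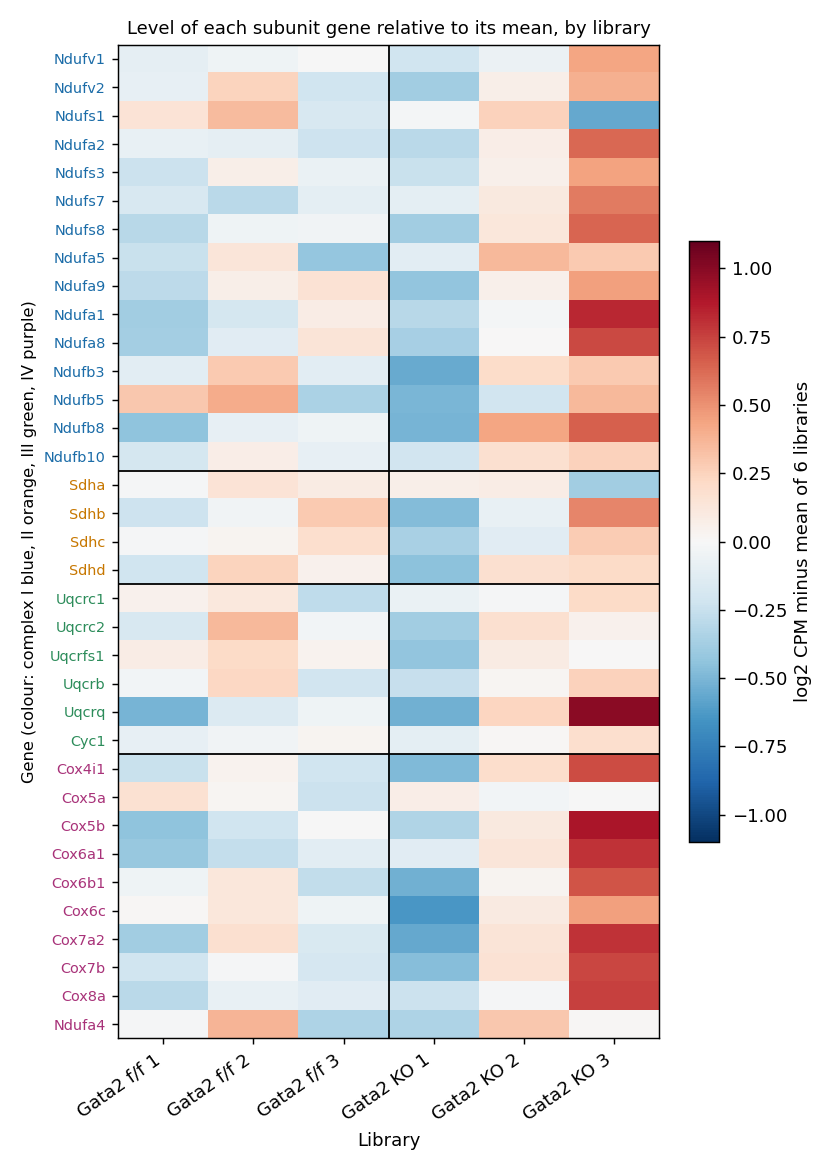
Log2 CPM of each subunit gene in each library minus its mean over 6 libraries, with genes grouped by complex. Gata2 KO 3 is the highest library for 25 of 35 genes and Gata2 KO 1 the lowest for 24, with Ndufs1 and Sdha lowest in Gata2 KO 3.

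Within pairs of the same number, the mean log2 ratio of Gata2 KO over Gata2 f/f over all 35 genes was -0.16 in number 1, 0.03 in number 2 and 0.51 in number 3. The ratio was positive for 8, 15 and 32 of the 35 in that order. It was positive in all 3 numbers for 7 genes, Ndufs7, Ndufa5, Ndufa1, Ndufa8, Cox5b, Cox6a1 and Cox8a, and negative in all 3 for Ndufs1 and Uqcrfs1, against 20.7% and 17.7% of all genes. The pair of number 2 holds the library that goes against its label. Tested between numbers with genotype in the model, no subunit gene passed an adjusted p of 0.05 in edgeR's quasi-likelihood test, where 9.09% of all genes did. At an unadjusted p under 0.05 there were 8 of the 35 (22.9%, against 30.7% of all genes), and DESeq2 called 3 of the 35, where it called 21.6% of all genes.

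The level in Gata2 KO 3 followed mRNA length, over all genes and over these. Among the 770 other coding genes tested with mRNAs under 1000 bases, the median deviation was -0.18, 0 and -0.03 across Gata2 f/f 1, 2 and 3 against -0.32, 0.08 and 0.50 across Gata2 KO 1, 2 and 3, and 74.0% had a positive log2 fold change. Among the 3550 with 4000 bases and over it was 0.16, -0.04 and 0.04 and then 0.25, 0.01 and -0.38, and 44.0% were positive. The order of the libraries in the short genes was thus turned round in the long ones for Gata2 KO 1 and 3.

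The subunit genes are mostly short: 20 have mRNAs under 1000 bases, 12 have 1000 to under 2000 and 3, Ndufs1, Sdha and Sdhc, have 2000 to under 4000. The 20 shortest had median deviations of -0.24, -0.01 and -0.12 across Gata2 f/f 1, 2 and 3 against -0.33, 0.12 and 0.65 across Gata2 KO 1, 2 and 3, and 18 of the 20 had a positive log2 fold change. None of the 3 longest did, and their median in Gata2 KO 3 was -0.38. All 10 complex IV mRNAs have 531 to 1001 bases, while complex II mRNAs have 1142 to 3171, so complex and length go together.

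**Figure D5:**
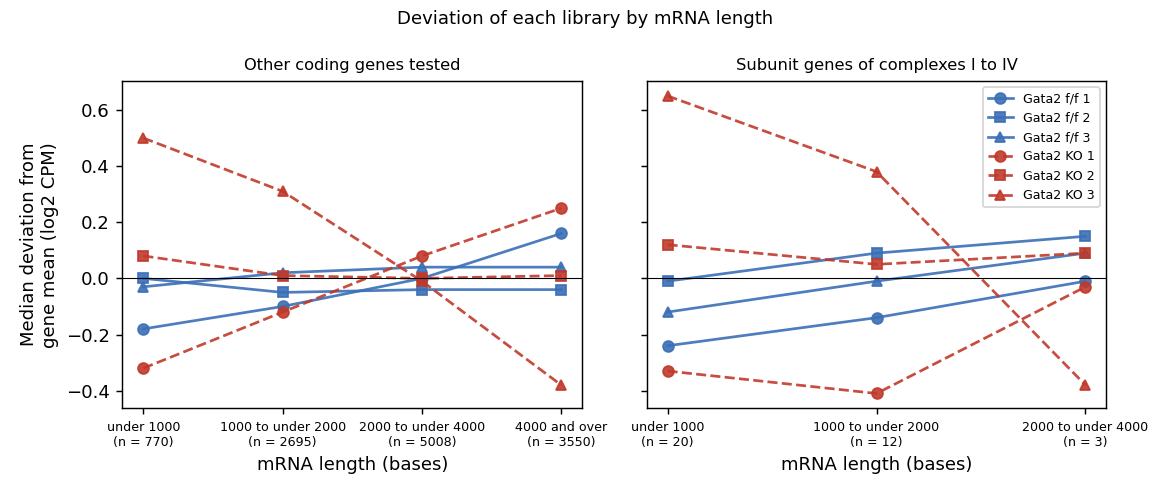
Median deviation from the gene mean (log2 CPM) in each library by mRNA length class, for the other coding genes tested (left) and for the subunit genes (right), with the number of genes under each class. In Gata2 KO 3 the median goes from 0.50 in the shortest to -0.38 in the longest class of other genes, and from 0.65 to -0.38 over the subunit genes.

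When a trend with mRNA length, estimated in each library from coding genes other than the 35, was taken out, the pattern over libraries shrank. The median deviation of the 35 was then -0.03, 0.07 and -0.06 across Gata2 f/f 1, 2 and 3 against -0.14, 0.04 and 0.12 across Gata2 KO 1, 2 and 3. It did not vanish: Gata2 KO 3 was still highest for 14 of the 35, though lowest for 8, and Gata2 KO 1 lowest for 13. The median log2 fold change of the 35 was -0.03, with 16 of 35 positive, against -0.02 for all genes. By complex it was 0.02 for I, -0.15 for II, -0.09 for III and 0.12 for IV. With this offset and the replicate block together, the 95% interval lay within 1.5-fold for 31 of the 35, against 29.4% of all genes.

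Other values also differed between the libraries. The summed 5 stem and progenitor markers, Gata2 among them, all had negative log2 fold changes and were lowest in Gata2 KO 3, at 87.0 CPM against 206 to 433 CPM in the other 5, and Kit was at 1.34 CPM there. The part of neutrophil, progenitor and proliferation markers in the levels of the subunit genes was not tested. Reads of 4 genes that carry ribosomal RNA took 7.01% of Gata2 f/f 1 and 5.95% of the library labelled Gata2 KO 2, and 0.283% to 1.25% of the other 4. With these 4 genes left out, the median log2 fold change of the 35 subunit genes was 0.10, with 23 positive. The part of ribosomal RNA in their levels was not tested further.

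Genes of the same complexes outside the 35 were mostly above 0, chiefly in number 3. Of 21 other complex I genes, 18 were positive (85.7%, median log2 fold change 0.22), and of 6 other complex III and IV genes with cytochrome c, 5 (median 0.07). Over all genes tested 52.5% were positive, and 74.0% of the other coding genes with mRNAs under 1000 bases. Within numbers 1, 2 and 3 the medians were -0.03, 0.05 and 0.61 for complex I. They were -0.32, 0.02 and 0.65 for the 6 others. The part of length in these lists was not tested. The accessory subunit gene Ndufb7 read 100, 112 and 111 CPM in the Gata2 f/f libraries against 123, 138 and 197 CPM in the Gata2 KO libraries, with no overlap and a log2 fold change of 0.50 ± 0.25 (SE). It was the only 1 of the 21 with no overlap (4.76%, against 5.42% of all genes tested). Ndufv3 had 0.46, Uqcr11 0.37 and cytochrome c, Cycs, -0.13. None of these, nor any gene in the lists below, passed the genotype test.

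ATP synthase, which uses the proton gradient, had 10 of 16 positive and a median of 0.10, with 0.36 for the c-ring gene Atp5g2 and 0.31 for Atp5j. Assembly factors were balanced, with 18 of 38 tested positive and a median of -0.01, with Ndufaf4 at -0.41 and Coa7 at 0.33. No read was counted for the copper chaperone Sco2 in any library. Its overlap with other genes was not examined, so the lack of reads does not show that the gene is silent. The tricarboxylic acid cycle and pyruvate dehydrogenase, which supply the electrons, had 4 of 16 positive and a median of -0.13, with Suclg2 at -0.36 and Idh3g at 0.23.

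Regulators of mitochondrial gene expression had 3 of 12 tested positive, with a median of -0.12. Gabpa, the DNA-binding subunit of GABP, read 85.4, 96.6 and 75.5 CPM in the Gata2 f/f libraries against 73.7, 74.0 and 42.2 CPM in the Gata2 KO libraries, with no overlap and a log2 fold change of -0.44 ± 0.28 (SE, edgeR adjusted p of 1). Ranges with Gata2 KO below did not overlap for 2.78% of all genes. Tfam, which packages mitochondrial DNA, had -0.50 ± 0.33 (SE). Both mRNAs are long, 3594 and 4167 bases, and both were lowest in Gata2 KO 3. The part of length in these values was not tested gene by gene.

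The 13 subunit mRNAs of mitochondrial DNA, which complete complexes I, III, IV and ATP synthase, did not follow the nuclear ones. They summed to 6690, 3050 and 10900 CPM across Gata2 f/f 1, 2 and 3, against 7100, 4080 and 11600 CPM across Gata2 KO 1, 2 and 3. The pairs of the same number lay close together, with number 3 highest and number 2 lowest in both genotypes. Of the 13, 6 passed the test between numbers (46.2%, against 9.09% of all genes), mt-Nd1, mt-Nd2, mt-Nd4, mt-Nd5, mt-Cytb and mt-Co1, each highest in number 3. Between genotypes 7 of 13 were positive, with a median of 0.06 and the smallest p for mt-Atp6 (-0.70 ± 0.54, SE) and mt-Co3 (-0.44 ± 0.38, SE). These 2 were small parts of the sum, with mt-Atp6 at 5.92 to 32.1 CPM and mt-Co3 at 15 to 37.6 CPM. Whether reads of the 13 were lost to near-identical nuclear copies was not tested.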

How the data were processed

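RNA of 6 cultures was poly(A)-selected and read as 90 bp paired ends from NEBNext Ultra II libraries, per the labels' protocols. The authors deposited raw counts, whole numbers by gene and sample, with no normalisation. kallisto, HTSeq, DESeq2 and the build mm10 are named without version or role, per the submitters' processing notes, and strand use is not given in the sources used here, so counts of overlapping or near-identical genes may be shared or split. Identifiers were matched without version to GENCODE M21 (49326 of 49585), and the unmatched held 0.00962% of counts.

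Genes were filtered by filterByExpr (minimum count 10), scaled by TMM and tested by edgeR 4.0.16 (quasi-likelihood, robust, R 4.3.3), Gata2 KO against Gata2 f/f over 6 libraries, with Benjamini-Hochberg adjustment over 13744 genes. Levels (CPM) are counts scaled to a common library total after TMM, and intervals and SE come from the F statistic. The main fit had no block. Methods were run on simulated counts with known changes, drawn with no trend with mRNA length and no mislabelled library. That run does not show how the tests perform on these libraries. Alternatives used DESeq2 1.42.0 and its size factors, upper-quartile scaling, other filters, each library left out, and, added after seeing the data, an offset by mRNA length (median of the principal coding transcripts), both libraries numbered 3 left out, Gata2 KO 2 left out with a block, DESeq2 with a block, and 4 ribosomal RNA genes left out. Samples were grouped by title. Deviations of same-numbered libraries from their group means correlated with r of 0.29, 0.55 and 0.65 over tested genes for numbers 1, 2 and 3. All were over the bar of 0.1 set for using the number as a block. Gata2 f/f 1 correlated more with Gata2 KO 2 (0.46) than with Gata2 KO 1. Deviations from a mean of 3 libraries depend on each other, so these values cannot decide the pairing, least of all for number 1. The labels do not say what the numbers mark. No libraries were duplicates, with a chi-square per degree of freedom of at least 25.6 for any pair. That lowest value was between Gata2 f/f 1 and Gata2 KO 2, and the next, 51.7, between Gata2 f/f 2 and Gata2 KO 2. Against Gata2 KO 1 and 3 the library labelled Gata2 KO 2 had 106 and 218. A p-value here rests on the spread among these samples, which may be technical.

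The 35 genes and all other lists were chosen with earlier results of these data known, so no list has a p. Every gene of the 35 is named. Values in every library were given for the 3 largest absolute log2 fold changes and the highest and lowest level per kilobase of each complex, for genes whose groups do not overlap and for Gata2. Of each other list the 2 genes of smallest p were named. Other genes were named after their values were seen. Copies were called at 95% identity over 90 aligned bases.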

Additional observations from a re-analysis of the deposited data

How the results depend on the processing

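No subunit gene passed the genotype test under any of the 18 alternatives. With the replicate number as a block no gene passed in edgeR, and the block changed no call of a subunit gene between genotypes. DESeq2 called 7 genes in all, DESeq2 with the replicate block 222, and leaving out Gata2 KO 2 with the block 54, none of them among the 35. The count of subunit genes bounded within 1.5-fold was 3. It was 15 with the replicate block, in edgeR and in DESeq2, 0 without a filter on low counts, 0 without Gata2 KO 2 and with the block, 7 without both libraries numbered 3, 11 with the offset by mRNA length and 31 with that offset and the block. Leaving out 1 library gave 0 to 10. Between numbers, no subunit gene passed (9.09% of all genes), 1 without a filter (9.76%) and 3 in DESeq2 (21.6%). The median log2 fold change of the 35 genes was negative without Gata2 KO 3 (-0.04), without both libraries numbered 3 (-0.10), and with the length offset without (-0.03) and with the block (-0.01), and between 0.07 and 0.25 under the others. The cause of these changes was not tested. The biological coefficient of variation was 42.6% without the block and 25.6% with it, and the lowest count of any of the 35 genes in a library was 446.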
